A study of Mus musculus with 26 samples.

Results

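The 10 genes described here encode sensors of DNA and RNA in the cytosol and proteins that relay or limit their signals: Ifih1, Dhx58, Mavs, Cgas, Sting1, Ifi203, Ifi204, Zbp1, Adar and Eif2ak2. They were chosen by gene name, and all 10 were found among the 37057 genes with a count in any library and passed the filter on low counts in both kinds of cell. Poly(A) RNA was sequenced from MC38/gp100 colon adenocarcinoma cells of the mouse (17 libraries), which display the melanoma antigen gp100, and from pmel-1 T cells (9 libraries). Those T cells came from transgenic animals and bear a receptor for gp100. The MC38 groups were Mtap knockout (KO) cells with MRTX1719, with GSK3326595 or with DMSO, and wild-type (WT) cells with the same 3 treatments. The T cell groups, all of WT genotype and kept in IL-2 at 500 IU/ml, were treated with MRTX1719, GSK3326595 or DMSO. Each group had 3 libraries, except WT MC38 cells with MRTX1719, which had 2 (replicates 1 and 3). Both compounds inhibit the arginine methyltransferase PRMT5, and MRTX1719 does so together with methylthioadenosine, the metabolite that the Mtap enzyme clears. Exposure was at 0.5 uM and lasted 5 days for the tumour line and 3 days for the T cells. The labels do not say whether the KO line is 1 clone or how many mice gave T cells. The treatment field of replicates 2 and 3 gives GSK3326595 with another last digit, but their titles give the same name throughout, and they are described here as 1 treatment.

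RNA in the cytosol that is long and double-stranded is bound by MDA5, the product of Ifih1, which is tuned by LGP2, the product of Dhx58, and signals through the mitochondrial adaptor MAVS. DNA in the cytosol is bound by cGAS, whose cyclic dinucleotide product activates STING, and in mice also by proteins of the Ifi200 family such as those of Ifi203 and Ifi204. Both arms lead to type I interferons, and interferons in turn raise the RNA of many of the sensors. ADAR1, the product of Adar, edits double-stranded RNA and so keeps the cell's own RNA from being sensed, while PKR, the product of Eif2ak2, stops translation and ZBP1 triggers cell death when they bind it.

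Since many sensor genes are known targets of interferon, the promoters of the members were read for the 2 motifs through which interferon acts, to show what those genes carry at their start. RefSeq promoter windows of the GRCm38.p6 build, 250 bases before to 50 bases after the start of transcription, were on hand for 6 members: Ifih1, Mavs, Cgas, Adar, Ifi203 and Eif2ak2. The interferon-stimulated response element, searched on both strands as GAAA, any 2 bases and GAAA, was found in windows of Ifi203, Ifih1 and Eif2ak2, that is in 3 of 6 members against 3.99% of all 27025 genes with a window and 3.44% of all 32851 windows. Each is shown with 10 bases on either side where the window reaches so far, the motif in capitals.
Ifi203, chr1:173942508-173942537, minus strand: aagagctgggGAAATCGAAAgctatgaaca
Ifih1, chr2:62646206-62646233, minus strand: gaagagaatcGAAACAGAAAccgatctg
Eif2ak2, chr17:78882535-78882564, minus strand: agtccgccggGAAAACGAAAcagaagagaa
The gamma-activated site, searched as TTCNNNGAA, which reads the same on both strands, was found in Adar and Eif2ak2, in 2 of 6 members against 9.55% of genes and 8.30% of windows.
Adar, chr3:89730730-89730758, plus strand: gggaagccttTTCAAGGAAacgaaagtga
Eif2ak2, chr17:78882732-78882760, minus strand: ctgcagagctTTCCCAGAAtggaagccag
The first base of the motif lies 35 bases before the start in Ifi203. In Ifih1 and Eif2ak2 the response element lies in the part after the start, as does the gamma-activated site of Adar. These matches are a description of the letters and not of binding, and windows of Mavs and Cgas held no match. Adar has 3 windows and Ifi203 has 2, which gave them more chances to match, and their other windows held neither motif.

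The MC38 libraries held 19302768 to 27786226 counts each and those of T cells 13813406 to 20772699. Levels below are CPM on library sizes scaled by edgeR's TMM method. Mtap stood at 264, 274 and 276 CPM in KO libraries and at 388, 393 and 397 CPM in WT libraries under DMSO, which is -0.53 ± 0.022 as a log2 fold change with its SE (adjusted p = 1.65e-49). The KO libraries thus lay apart from the WT libraries without losing the RNA, and counts over a whole gene check an edit only in part. Of 5 epithelial markers in MC38 cells, Epcam had at most 1 count per library, Krt20 at most 4, Krt18 at most 15 and Cdh1 at most 22. The defining markers of colon epithelium were thus low or near 0, while Krt8 had 277 to 1593. Of 8 myeloid markers Tyrobp, Adgre1 and Itgam had at most 2 counts in any MC38 library and Csf1r at most 8, while Lyz2 had 1 to 39, Fcgr3 8 to 47, Cd14 201 to 449 and Cd68 293 to 523. Every T cell library held the CD8 T cell genes Cd8a, Cd8b1, Cd3e, Cd3g and Trac, whose levels summed to 1757 to 2299 CPM. Markers of other cells were mixed there, with 0 counts of Lyz2, Ms4a1 and Ncr1 in every T cell library, but 97 to 179 of the myeloid gene Cd68, 40 to 96 of the B cell gene Cd79b, and 70 to 170 of Klrb1c and 2096 to 3886 of Eomes from the NK cell list. A called gene below has an adjusted p under 0.05 in edgeR's quasi-likelihood test, Benjamini-Hochberg adjusted over the 14835 MC38 genes or 13753 T cell genes tested. Whether replicates were grown or isolated separately is not in the labels, and every p-value therefore rests on a spread between libraries that may be technical. In bulk libraries fewer cells that express a gene and less RNA per cell cannot be told apart.

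**Figure D1:**
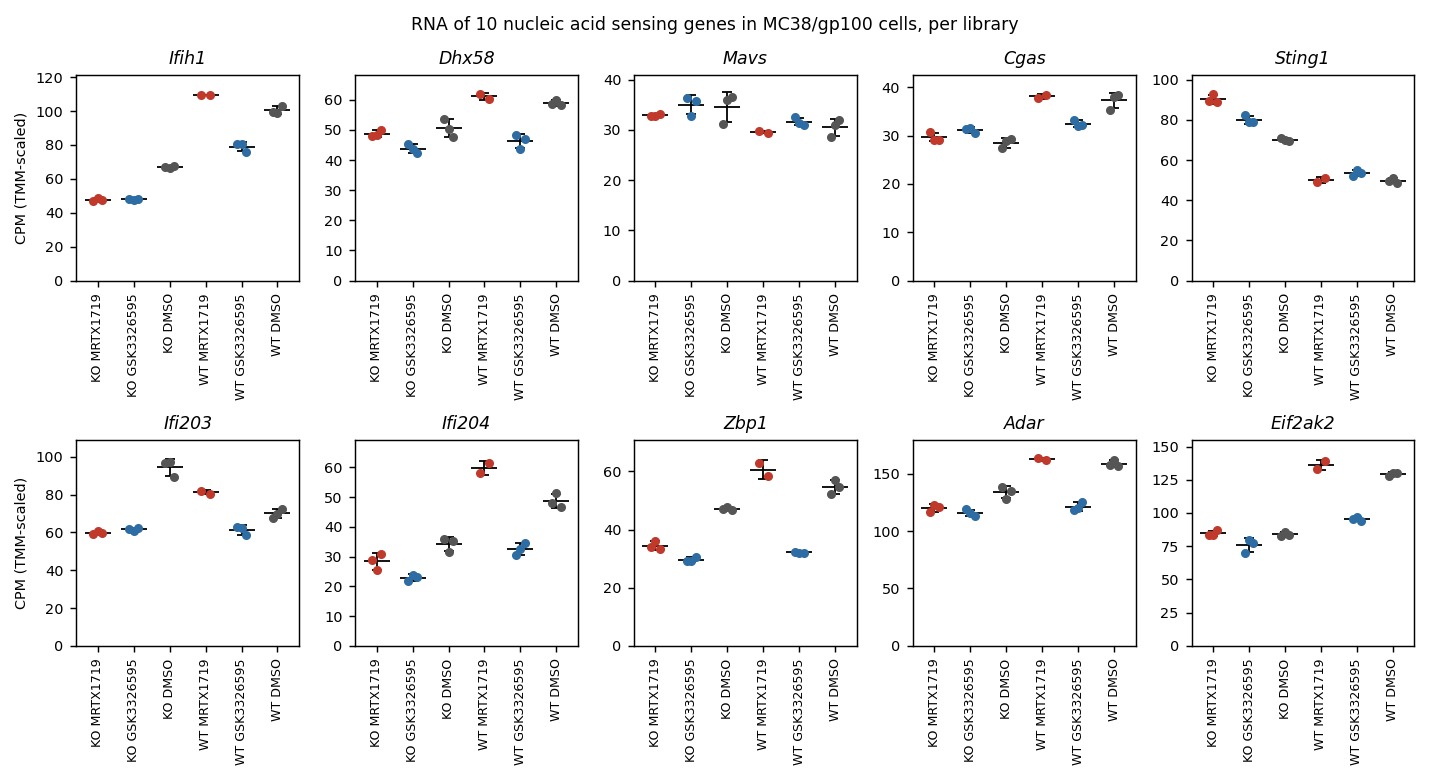
Level of each of the 10 genes in CPM (y axis, from 0) in every MC38 library, in the 6 groups along the x axis; dots are libraries, and bars are the mean and SD of a group (n = 3, but n = 2 for WT cells with MRTX1719). Zbp1, Ifi204, Adar and Eif2ak2 were lower with GSK3326595 than with DMSO in both lines, whereas with MRTX1719 Zbp1, Ifi204, Ifi203 and Ifih1 were below DMSO in KO cells and above it in WT cells, and Sting1 stood highest in KO cells with MRTX1719.

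With no inhibitor, the KO line had less RNA for most of the sensors than the WT line. All 10 genes were called, against 73.2% of all genes, 7 lower and 3 higher in KO cells, where 37.0% of all genes tested were lower and 36.2% higher. The median of the 10 log2 fold changes was -0.24, against 0.01 over all genes. Eif2ak2, Ifih1 and Ifi204 lay furthest below the WT level, and Sting1 and Ifi203 stood above it.

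GSK3326595 lowered most of the sensors in both MC38 lines. In WT cells 8 of the 10 were lower and 1 higher, against 21.1% and 20.1% of all genes tested (41.1% in either direction), with a median of -0.35 for the 10 and of 0.001 for all genes. In KO cells 7 were lower and 2 higher, against 25.1% and 27.7% of all genes (52.8% in either direction), with medians of -0.21 and 0.01. Zbp1 fell most in each line, where it fell by 41.4% in WT and fell by 37.2% in KO cells. Mavs was not called in either line, and Sting1 was higher in both.

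The calls with MRTX1719 differed between the MC38 lines, as they did over all genes. The difference of its effect between the lines was called for 6 of the 10, against 58.2% of all genes tested. In KO cells 5 of the 10 were lower and 1 higher, against 33.6% and 37.0% of all genes tested, with medians of -0.12 for the 10 and 0.02 for all genes. In all 6 of the 10 were called in this comparison, against 70.5% of all genes. In WT cells 4 of the 10 were higher and 0 lower, against 3.62% and 3.91% of all genes (7.53% in either direction), with medians of 0.06 and -0.0005. The 4 were Ifi204, Ifi203, Zbp1 and Ifih1, and the calls of Zbp1 and Ifih1 were lost without WT DMSO replicate 1 or without WT MRTX1719 replicate 1, which left 2. The count over all genes rests on the 2 treated libraries as well, being 1117 with both, 433 without MRTX1719 replicate 1 and 510 without replicate 3.

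In T cells both compounds lowered sensors and raised none of the 10. With MRTX1719 7 were lower, against 18.5% of all genes lower and 18.9% higher (37.4% in either direction), with medians of -0.53 for the 10 and -0.0008 for all genes. With GSK3326595 6 were lower, against 26.2% of all genes lower and 26.6% higher (52.8% in either direction), with medians of -0.51 and -0.0033. Dhx58 fell by 48.5% with MRTX1719 and by 49.2% with GSK3326595. The 2 comparisons share the DMSO libraries, as do those of each MC38 line.

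**Figure D2:**
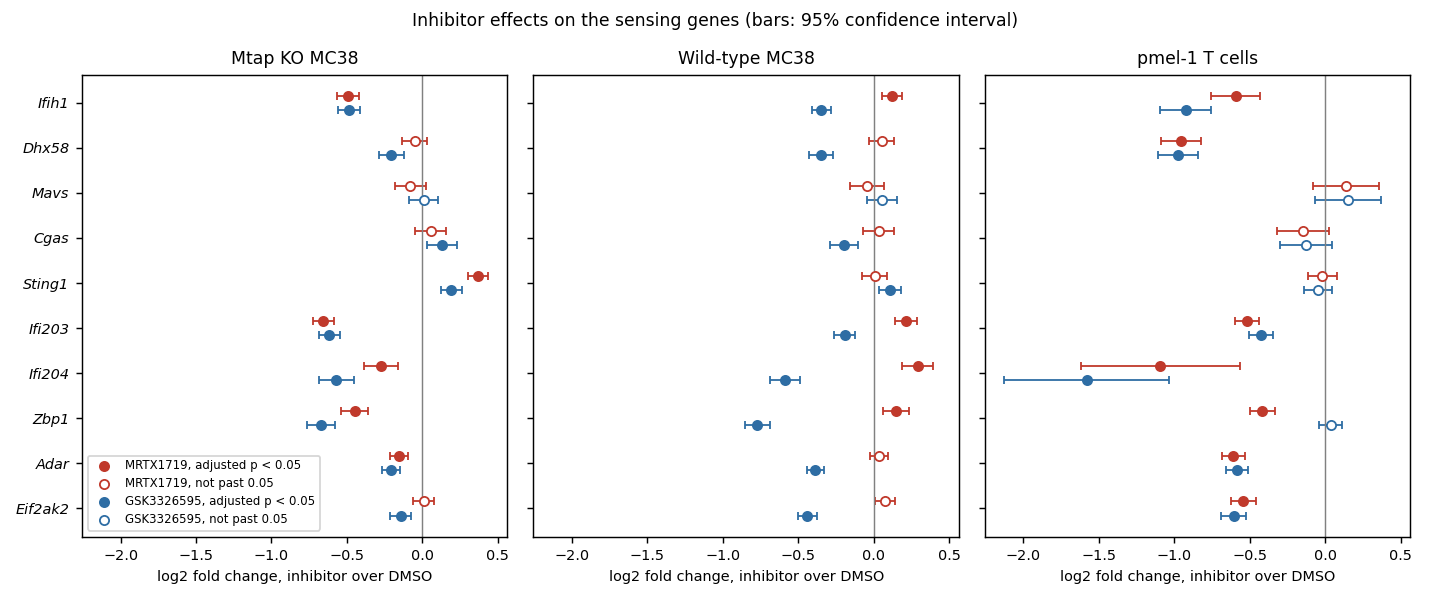
Log2 fold change of each gene with MRTX1719 (red) and GSK3326595 (blue) over DMSO on the x axis, in KO MC38 cells, WT MC38 cells and T cells from left to right; bars are 95% confidence intervals, and filled points have an adjusted p under 0.05. In KO cells and T cells most red and blue points lie left of 0, while in WT cells the blue points lie left of 0 except Sting1 and Mavs, and the red points lie right of it except Mavs at -0.04.

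Among the RNA sensors, Ifih1 (ENSMUSG00000026896, chromosome 2) encodes MDA5, which binds long double-stranded RNA. It had 46.8, 48.7 and 47.6 CPM in KO libraries with MRTX1719, 47.9, 47.7 and 48.4 CPM with GSK3326595, and 67.2, 66.7 and 67.8 CPM with DMSO. WT libraries had 109 and 109 CPM with MRTX1719, 80.5, 80.5 and 76.0 CPM with GSK3326595, and 99.4, 99.0 and 103 CPM with DMSO. Each KO library lay below each WT library, and the 2 inhibitors overlapped in KO cells and stood on opposite sides of DMSO in WT cells. Relative to DMSO, Ifih1 fell by 0.49 on the log2 scale with MRTX1719 (SE 0.038, adjusted p = 5.58e-25) and by 0.49 with GSK3326595 (SE 0.037, adjusted p = 1.88e-24) in KO cells. In WT cells it rose with MRTX1719 (0.12 ± 0.034, adjusted p = 0.0114) and fell with GSK3326595 (-0.35 ± 0.032, adjusted p = 9.06e-19). The rise was lost without any 1 of 4 libraries, WT DMSO replicates 1 and 2 and both MRTX1719 replicates, with adjusted p of up to 0.114. KO cells were below WT cells under DMSO by 0.58 (SE 0.033, adjusted p = 1.6e-35). In T cells Ifih1 had 20.01, 20.1 and 17.2 CPM with MRTX1719, 16.1, 12.8 and 16.1 CPM with GSK3326595, and 27.1, 28.7 and 30.4 CPM with DMSO, so that the 3 groups lay apart. Both compounds lowered it there, MRTX1719 by 0.59 (SE 0.082, adjusted p = 3.18e-09) and GSK3326595 by 0.92 (SE 0.084, adjusted p = 6.58e-17).

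Dhx58 (ENSMUSG00000017830, chromosome 11) encodes LGP2, a relative of MDA5 without a signalling domain that modulates it. In KO libraries it had 47.9, 48.5 and 49.9 CPM with MRTX1719, 45.3, 43.7 and 42.4 CPM with GSK3326595, and 53.7, 50.4 and 47.7 CPM with DMSO. In WT libraries it had 62.0 and 60.3 CPM with MRTX1719, 48.2, 43.6 and 47.0 CPM with GSK3326595, and 58.5, 60.1 and 58.2 CPM with DMSO. The GSK3326595 libraries lay below DMSO in both lines, while those with MRTX1719 overlapped DMSO in KO cells and stood just above it in WT cells. GSK3326595 lowered Dhx58 by 0.21 in KO (SE 0.042, adjusted p = 1.16e-05) and by 0.35 in WT cells (SE 0.040, adjusted p = 1.44e-13). MRTX1719 gave -0.05 ± 0.042 in KO and 0.05 ± 0.042 in WT cells, neither called (adjusted p = 0.289 and 0.547). KO cells were below WT cells under DMSO (-0.23 ± 0.040, adjusted p = 2.75e-07). T cells had 25.1, 22.9 and 25.8 CPM with MRTX1719, 25.1, 23.0 and 24.6 CPM with GSK3326595, and 46.1, 47.2 and 50.1 CPM with DMSO. The inhibitor groups overlapped each other and lay far below DMSO, by 0.96 with MRTX1719 (SE 0.067, adjusted p = 1.87e-22) and by 0.98 with GSK3326595 (SE 0.066, adjusted p = 6.22e-24). Dhx58os shares 141 exonic bases with Dhx58 on the opposite strand in GENCODE vM21, and the strand setting of the counting is not given in the sources used here.

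Mavs (ENSMUSG00000037523, chromosome 2), the adaptor through which MDA5 signals, moved little. Its KO libraries held 32.7, 32.8 and 33.2 CPM with MRTX1719, 36.4, 32.9 and 35.8 CPM with GSK3326595, and 31.2, 35.9 and 36.7 CPM with DMSO. Its WT libraries held 29.8 and 29.4 CPM with MRTX1719, 32.5, 31.5 and 31.0 CPM with GSK3326595, and 28.5, 31.1 and 31.9 CPM with DMSO. In T cells it was at 11.6, 11.6 and 10.7 CPM with MRTX1719, 10.5, 11.2 and 12.3 CPM with GSK3326595, and 10.0, 9.37 and 11.2 CPM with DMSO. Every inhibitor group overlapped its DMSO group, and none of the 6 comparisons with DMSO was called. The 95% intervals of the log2 fold change were -0.18 to 0.02 in KO and -0.16 to 0.07 in WT cells with MRTX1719, and -0.08 to 0.36 in T cells. For GSK3326595 they were -0.09 to 0.11, -0.05 to 0.15 and -0.07 to 0.37 in the same cells. Under DMSO Mavs was higher in KO than in WT cells (0.19 ± 0.051, adjusted p = 0.000573), although the libraries of the lines overlapped.

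Among the DNA sensors, Cgas (ENSMUSG00000032344, chromosome 9) encodes the enzyme that makes the messenger of the pathway. KO libraries had 30.7, 29.2 and 29.2 CPM with MRTX1719, 31.4, 31.6 and 30.5 CPM with GSK3326595, and 27.4, 28.8 and 29.2 CPM with DMSO. WT libraries gave 37.7 and 38.5 CPM with MRTX1719, 33.3, 31.9 and 32.2 CPM with GSK3326595, and 35.4, 37.9 and 38.5 CPM with DMSO. Under DMSO and under MRTX1719 the KO libraries lay well below the WT libraries, and under GSK3326595 the lines lay close together. GSK3326595 lowered Cgas in WT cells (-0.20 ± 0.047, adjusted p = 0.000189) and raised it in KO cells (0.13 ± 0.050, adjusted p = 0.0253). The rise in KO cells was lost under several settings, for instance without KO DMSO replicate 1 (adjusted p = 0.123) or with DESeq2 (adjusted p = 0.0574). MRTX1719 gave 0.06 ± 0.052 in KO and 0.03 ± 0.051 in WT cells (adjusted p = 0.332 and 0.803). KO cells were below WT cells under DMSO by 0.39 (SE 0.049, adjusted p = 3.49e-12). In T cells Cgas was at 20.2, 16.1 and 21.4 CPM with MRTX1719, 20.04, 17.4 and 21.1 CPM with GSK3326595, and 20.5, 21.4 and 22.3 CPM with DMSO. These 3 groups overlapped, with 95% intervals of the log2 fold change of -0.32 to 0.03 for MRTX1719 and -0.30 to 0.05 for GSK3326595. Gm8093 shares 201 exonic bases with Cgas on the opposite strand in GENCODE vM21.

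Sting1 (ENSMUSG00000024349) encodes STING, which the cGAS product activates, and it ran against most of the other sensors in MC38 cells. It had 89.4, 92.8 and 88.8 CPM in KO libraries with MRTX1719, 82.5, 78.9 and 79.1 CPM with GSK3326595, and 70.9, 69.9 and 69.4 CPM with DMSO. WT libraries held 49.0 and 51.0 CPM with MRTX1719, 52.2, 55.2 and 53.7 CPM with GSK3326595, and 49.7, 51.0 and 48.5 CPM with DMSO. All KO libraries lay above all WT libraries, the 3 KO groups lay apart from each other, and in WT cells MRTX1719 and DMSO overlapped. Sting1 rose in KO cells with MRTX1719 (0.37 ± 0.034, adjusted p = 3.73e-19) and with GSK3326595 (0.19 ± 0.034, adjusted p = 5.72e-07), and was higher in KO than in WT cells under DMSO (0.49 ± 0.037, adjusted p = 2.55e-25). In WT cells it rose slightly with GSK3326595 (0.11 ± 0.038, adjusted p = 0.0147), a call lost without WT DMSO replicate 3 or without GSK3326595 replicate 2 (adjusted p = 0.082 and 0.0924), and MRTX1719 gave 0.01 ± 0.043. T cells had 74.5, 70.6 and 79.7 CPM with MRTX1719, 74.6, 73.1 and 72.9 CPM with GSK3326595, and 76.0, 76.5 and 75.6 CPM with DMSO. Neither compound was called there, with 95% intervals of -0.12 to 0.08 for MRTX1719 and -0.14 to 0.05 for GSK3326595.

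Ifi203 (ENSMUSG00000039997) and Ifi204 (ENSMUSG00000073489) both lie on chromosome 1. They belong to a family of mouse DNA-binding proteins with near-identical stretches, so reads may have been shared or split among its genes and both are given as uncertain. Ifi203 had 59.5, 60.6 and 59.7 CPM in KO libraries with MRTX1719, 61.7, 60.7 and 62.4 CPM with GSK3326595, and 97.0, 97.2 and 89.4 CPM with DMSO. Its WT libraries had 82.1 and 80.5 CPM with MRTX1719, 63.2, 62.2 and 58.6 CPM with GSK3326595, and 67.9, 69.9 and 72.6 CPM with DMSO. The untreated KO libraries were the highest of all, and under GSK3326595 the lines overlapped. Ifi203 fell in KO cells by 36.5% with MRTX1719 (-0.66 ± 0.035, adjusted p = 1.03e-37) and by 34.8% with GSK3326595 (-0.62 ± 0.035, adjusted p = 2.77e-35). In WT cells it rose with MRTX1719 (0.21 ± 0.038, adjusted p = 1.6e-05) and fell with GSK3326595 (-0.19 ± 0.036, adjusted p = 2.4e-06), and KO exceeded WT under DMSO by 0.43 ± 0.034 (adjusted p = 1.04e-23). In T cells it was at 200.02, 204 and 185 CPM with MRTX1719, 222, 199 and 205 CPM with GSK3326595, and 273, 288 and 281 CPM with DMSO. The inhibitor groups overlapped and lay below DMSO, with -0.52 ± 0.039 for MRTX1719 (adjusted p = 1.34e-19) and -0.43 ± 0.039 for GSK3326595 (adjusted p = 2.67e-16).

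Ifi204 encodes a nuclear and cytosolic DNA-binding protein studied as a mouse counterpart of IFI16. Its KO libraries had 28.7, 25.5 and 30.9 CPM with MRTX1719, 21.7, 23.8 and 23.3 CPM with GSK3326595, and 36.0, 31.4 and 35.2 CPM with DMSO. WT libraries were at 58.0 and 61.4 CPM with MRTX1719, 30.4, 32.5 and 34.4 CPM with GSK3326595, and 48.1, 51.4 and 46.6 CPM with DMSO. WT cells with MRTX1719 were the highest, and within each line the groups did not overlap. Ifi204 fell in KO cells with MRTX1719 (-0.28 ± 0.057, adjusted p = 1.24e-05) and GSK3326595 (-0.57 ± 0.058, adjusted p = 5.78e-14), rose in WT cells with MRTX1719 (0.29 ± 0.050, adjusted p = 2.47e-05) and fell there with GSK3326595 (-0.59 ± 0.050, adjusted p = 7.39e-17). KO cells were below WT cells under DMSO by 0.52 (SE 0.051, adjusted p = 6.35e-15). T cells carried little of it, 1.59, 2.04 and 0.939 CPM with MRTX1719, 0.971, 0.775 and 1.40 CPM with GSK3326595, and 2.64, 2.98 and 4.0005 CPM with DMSO, or 12 to 66 counts per library. Every inhibitor library lay below every DMSO library, with -1.09 ± 0.265 for MRTX1719 (adjusted p = 0.000453) and -1.58 ± 0.276 for GSK3326595 (adjusted p = 6.75e-07). The 8 myeloid markers of T cell libraries summed to 8.15 to 9.58 CPM with MRTX1719, 9.77 to 11.2 CPM with GSK3326595 and 11.5 to 12.2 CPM with DMSO, with Lyz2 at 0 in every library and Cd68 the most abundant, and their part in this result was not tested.

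**Figure D3:**
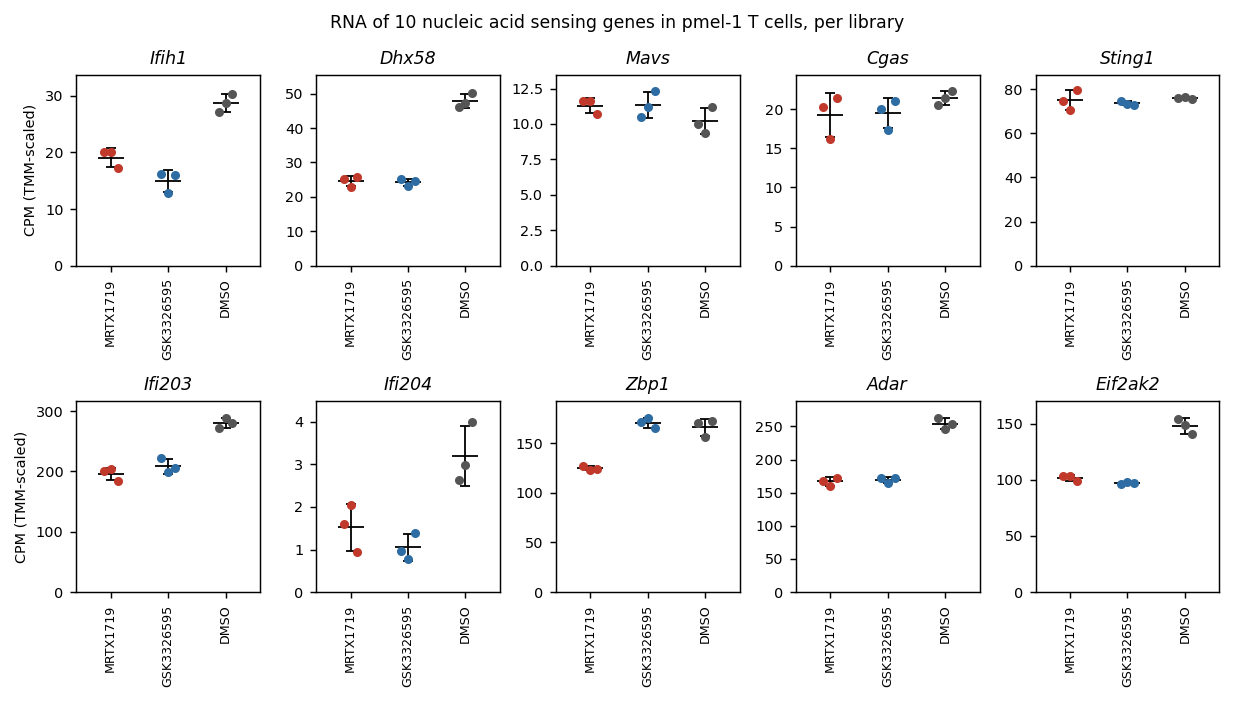
Level of each of the 10 genes in CPM (y axis, from 0) in every T cell library, with MRTX1719, GSK3326595 and DMSO from left to right on the x axis; dots are libraries, and bars are the mean and SD of a group (n = 3). Ifih1, Dhx58, Adar, Ifi203, Ifi204 and Eif2ak2 were below DMSO in every library of both inhibitors, and Zbp1 was below it with MRTX1719, at 123 to 127 CPM.

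Among the proteins that act on double-stranded or left-handed RNA, Zbp1 (ENSMUSG00000027514, chromosome 2) encodes the Z-nucleic acid sensor that can engage RIPK3 and MLKL to kill the cell. KO libraries held 34.0, 36.2 and 33.2 CPM with MRTX1719, 29.3, 29.1 and 30.5 CPM with GSK3326595, and 47.1, 47.7 and 46.8 CPM with DMSO. WT libraries were at 62.9 and 58.3 CPM with MRTX1719, 32.4, 32.0 and 32.0 CPM with GSK3326595, and 52.3, 57.1 and 54.7 CPM with DMSO. None of these 6 groups overlapped another, and WT cells with MRTX1719 were the highest and KO cells with GSK3326595 the lowest. Zbp1 fell in KO cells with MRTX1719 (-0.45 ± 0.045, adjusted p = 4.91e-17) and GSK3326595 (-0.67 ± 0.046, adjusted p = 4.96e-28), and in WT cells with GSK3326595 (-0.77 ± 0.043, adjusted p = 4.42e-35). Its rise in WT cells with MRTX1719 (0.15 ± 0.044, adjusted p = 0.0195) was lost with DESeq2 (adjusted p = 0.0877), with limma on the authors' normalized signal (0.0544), and without WT DMSO replicate 1 (0.155) or MRTX1719 replicate 1 (0.46). KO cells were below WT cells under DMSO (-0.22 ± 0.042, adjusted p = 1.8e-06). In T cells Zbp1 was at 127, 123 and 124 CPM with MRTX1719, 171, 175 and 165 CPM with GSK3326595, and 170.1, 156 and 172 CPM with DMSO. Only the MRTX1719 libraries lay apart from the others, with -0.42 ± 0.041 against DMSO (adjusted p = 7.13e-15) and 0.04 ± 0.040 for GSK3326595 (adjusted p = 0.467).

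Adar (ENSMUSG00000027951, chromosome 3) encodes the enzyme that edits adenosines in double-stranded RNA. In KO libraries it had 117, 123 and 121 CPM with MRTX1719, 119, 116 and 113 CPM with GSK3326595, and 139, 128 and 135 CPM with DMSO. In WT libraries it had 163 and 162 CPM with MRTX1719, 119, 119.9 and 126 CPM with GSK3326595, and 158, 162 and 156 CPM with DMSO. Both inhibitors lay below DMSO in KO cells and overlapped each other, whereas in WT cells MRTX1719 overlapped DMSO. It fell in KO cells with MRTX1719 (-0.15 ± 0.030, adjusted p = 1.81e-06) and GSK3326595 (-0.21 ± 0.029, adjusted p = 5.56e-10) and in WT cells with GSK3326595 (-0.39 ± 0.028, adjusted p = 2.03e-25), with 0.03 ± 0.031 for MRTX1719 there (adjusted p = 0.605). KO cells were below WT cells under DMSO (-0.25 ± 0.029, adjusted p = 4.81e-14). T cells had 168, 160.2 and 173 CPM with MRTX1719, 172, 164 and 172 CPM with GSK3326595, and 262, 246 and 254 CPM with DMSO. The inhibitor groups overlapped and lay below DMSO, by 0.61 with MRTX1719 (SE 0.038, adjusted p = 4.97e-25) and by 0.58 with GSK3326595 (SE 0.038, adjusted p = 6.38e-25). Of 8118 exonic bases of Adar in GENCODE vM21, 1365 are shared with Chrnb2 on the opposite strand, and counting without strand would mix the reads of both genes.

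Eif2ak2 (ENSMUSG00000024079, chromosome 17) encodes PKR, the kinase that halts translation on binding double-stranded RNA. Its KO libraries were at 83.1, 83.6 and 87.0 CPM with MRTX1719, 69.8, 79.9 and 77.6 CPM with GSK3326595, and 82.5, 85.9 and 83.4 CPM with DMSO. WT libraries held 133 and 139 CPM with MRTX1719, 95.4, 96.6 and 93.8 CPM with GSK3326595, and 127, 130.4 and 129.9 CPM with DMSO. The KO libraries lay below the WT libraries throughout, and in KO cells MRTX1719 overlapped DMSO. Eif2ak2 fell with GSK3326595 in KO (-0.14 ± 0.034, adjusted p = 0.000149) and WT cells (-0.44 ± 0.031, adjusted p = 8.28e-27), while MRTX1719 gave 0.01 ± 0.034 and 0.07 ± 0.033 (adjusted p = 0.827 and 0.176). Of the 10 genes it was the furthest below WT in KO cells under DMSO, by 0.62 (SE 0.032, adjusted p = 6.09e-40). T cells had 103, 104 and 98.6 CPM with MRTX1719, 96.1, 98.4 and 97.5 CPM with GSK3326595, and 154, 149 and 141 CPM with DMSO. It fell there with MRTX1719 (-0.54 ± 0.042, adjusted p = 1.03e-19) and with GSK3326595 (-0.61 ± 0.042, adjusted p = 3.29e-23). On the opposite strand Gm26637 shares 174 exonic bases with Eif2ak2 in GENCODE vM21, and n-R5s29 shares 47.

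Whether an inhibitor acted differently on a sensor in the MC38 lines was tested as an interaction, the log2 effect in KO cells minus that in WT cells. For MRTX1719 5 of the 10 genes had a lower effect in KO cells and 1 a higher one, against 27.9% and 30.3% of all genes tested (58.2% in either direction). The 5 were Ifi203 (-0.87 ± 0.052, adjusted p = 5.24e-33), Ifih1 (-0.61 ± 0.051, adjusted p = 3.57e-22), Zbp1 (-0.60 ± 0.063, adjusted p = 1.11e-15), Ifi204 (-0.57 ± 0.076, adjusted p = 6.94e-10) and Adar (-0.19 ± 0.043, adjusted p = 6.33e-05), and the effect on Sting1 was higher (0.36 ± 0.055, adjusted p = 3.82e-09). The first 4 of these are the genes called higher in WT and lower in KO cells. For GSK3326595 4 effects were higher and 2 lower in KO cells, against 22.0% and 20.2% of all genes (42.2% in either direction). The fall of Ifi203 was deeper in KO cells (-0.42 ± 0.050, adjusted p = 6.76e-13), as was that of Ifih1 (-0.14 ± 0.049, adjusted p = 0.0157), while Eif2ak2 (0.30 ± 0.046, adjusted p = 2.12e-08), Adar (0.18 ± 0.041, adjusted p = 0.000107) and Dhx58 (0.14 ± 0.058, adjusted p = 0.0352) fell less there. For Cgas (0.33 ± 0.069, adjusted p = 2.73e-05) the effects had opposite signs, and the call of Dhx58 was lost with library totals as the scaling (adjusted p = 0.0796), with DESeq2 (0.0917) and without any 1 of 6 libraries.

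**Figure D4:**
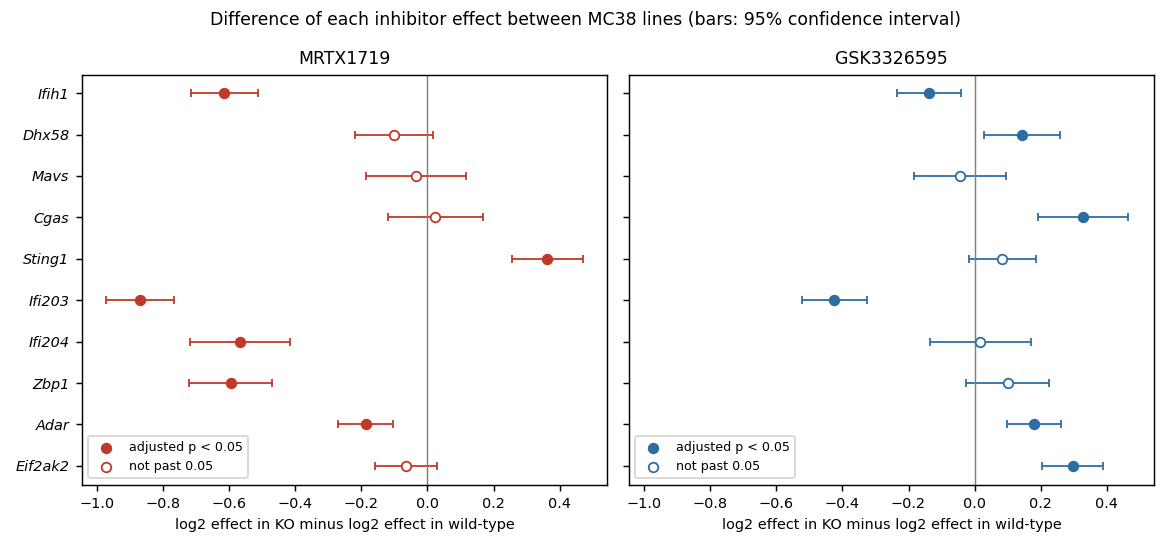
Difference of each inhibitor's log2 effect between the lines, KO minus WT, for MRTX1719 on the left and GSK3326595 on the right (x axis); bars are 95% confidence intervals, and filled points have an adjusted p under 0.05. With MRTX1719 Ifi203 lies furthest left, at -0.87, and Sting1 is the filled point right of 0, whereas with GSK3326595 the filled points of Cgas, Eif2ak2, Adar and Dhx58 lie right of 0.

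Set against each other at 0.5 uM, the compounds differed for more of the 10 genes in WT cells than in KO cells or T cells. There 8 of 10 genes were higher with MRTX1719 and 0 lower, against 15.4% and 14.6% of all genes tested (30.0% in either direction). Over all genes the share called was smaller in WT cells than in KO cells or T cells. Zbp1 differed by 0.92 ± 0.047 (adjusted p = 6.18e-39), Ifi204 by 0.88 ± 0.053 (adjusted p = 3.61e-24) and Eif2ak2 by 0.51 ± 0.034 (adjusted p = 6.23e-29). Sting1 missed the threshold, with a 95% interval of -0.19 to -0.02 (adjusted p = 0.0508), and passed it under several settings such as DESeq2 size factors (0.0472). In KO cells 5 genes were higher with MRTX1719 and 0 lower, against 28.3% and 24.9% of all genes (53.2% in either direction). They were Ifi204 (0.29 ± 0.060, adjusted p = 2.04e-05), Zbp1 (0.22 ± 0.048, adjusted p = 3.68e-05), Sting1 (0.18 ± 0.033, adjusted p = 1.92e-06), Dhx58 (0.16 ± 0.042, adjusted p = 0.000904) and Eif2ak2 (0.15 ± 0.034, adjusted p = 5.13e-05). Ifih1 and Ifi203 showed no called difference between the compounds there, with 95% intervals of -0.08 to 0.07 and of -0.11 to 0.03. In T cells 1 gene was higher with MRTX1719 and 1 lower, against 19.3% and 19.7% of all genes (39.1% in either direction). Ifih1 was higher (0.33 ± 0.089, adjusted p = 0.0015) and Zbp1 lower (-0.45 ± 0.040, adjusted p = 6.62e-17). Dhx58 had a 95% interval of -0.12 to 0.16, Adar of -0.10 to 0.05 and Eif2ak2 of -0.02 to 0.15, and for Ifi204 the interval of -0.13 to 1.10 was wide. With library totals as the scaling, 38.8% of all genes called between the compounds in T cells were higher with MRTX1719, against 49.5% with TMM, and of those called between MRTX1719 and DMSO 36.9% were higher, against 50.5%.

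The other genes of the pathways were described from 4 lists, by how many of the members tested were called. Over all genes tested, 33.6% were lower and 37.0% higher in KO cells with MRTX1719, and 25.1% and 27.7% with GSK3326595. In WT cells the shares were 3.91% lower and 3.62% higher with MRTX1719 and 21.1% and 20.1% with GSK3326595, and in T cells 18.5% and 18.9% with MRTX1719 and 26.2% and 26.6% with GSK3326595. Of 20 genes of RNA sensing and MAVS signalling, 11 were lower and 4 higher in KO cells with MRTX1719, and 7 and 4 with GSK3326595. In WT cells 0 were lower and 4 higher with MRTX1719, and 8 and 4 with GSK3326595. T cells, in which 19 were tested, had 6 lower and 0 higher with MRTX1719 and 11 and 4 with GSK3326595. In either direction, the 15 of 20 called in KO cells with MRTX1719 stand beside 70.5% of all genes, and the 11 of 20 with GSK3326595 beside 52.8%. The 6 of 19 in T cells with MRTX1719 stand beside 37.4%, so these shares in either direction were near or below the background. By direction, their lower calls were above the background and their higher calls below it. That is 11 and 4 of 20 against 33.6% and 37.0%, 7 and 4 of 20 against 25.1% and 27.7%, and 6 and 0 of 19 against 18.5% and 18.9%. The remaining shares in either direction were above the background. They were 8 lower and 4 higher of 20 against 41.1% in WT cells with GSK3326595, and 0 and 4 of 20 against 7.53% with MRTX1719. In T cells with GSK3326595 they were 11 and 4 of 19 against 52.8%. Tkfc, which encodes a kinase that binds MDA5, fell by 1.78 in KO cells with MRTX1719 (SE 0.081, adjusted p = 6.13e-45) and by 0.85 with GSK3326595 (SE 0.070, adjusted p = 4.95e-22). Ddx60, a helicase gene induced by interferon, fell in T cells with MRTX1719 (-1.14 ± 0.15, adjusted p = 1.03e-09) and GSK3326595 (-1.22 ± 0.15, adjusted p = 3.85e-11), and in WT MC38 cells it rose with MRTX1719 (0.19 ± 0.036) and fell with GSK3326595 (-0.38 ± 0.034). Trim25, a ubiquitin ligase gene of the RIG-I arm, fell in T cells by 0.77 with MRTX1719 and by 0.86 with GSK3326595 (SE 0.056 each). Tlr3, the endosomal receptor of double-stranded RNA, behaved in WT MC38 cells like Ddx60, with 0.19 ± 0.047 for MRTX1719 and -0.36 ± 0.045 for GSK3326595.

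Of 24 genes of DNA sensing and nucleases 19 were tested in each kind of cell. In KO cells 8 were lower and 9 higher with MRTX1719, and 6 and 4 with GSK3326595, and in WT cells 0 and 3 with MRTX1719 and 7 and 5 with GSK3326595. T cells had 8 lower and 4 higher with MRTX1719 and 9 and 4 with GSK3326595. The 17 of 19 called in KO cells with MRTX1719 stand beside 70.5% of all genes, and the 10 of 19 with GSK3326595 are at the background of 52.8%. For the WT counts the share of all genes called in either direction was 7.53% with MRTX1719 and 41.1% with GSK3326595. For the T cell counts it was 37.4% and 52.8%. Rnaseh2c, a subunit gene of the nuclease that removes RNA from DNA hybrids, fell in KO cells with MRTX1719 to 9.02 ± 0.147 CPM, against 22.1 ± 0.200 CPM with DMSO (SD, n = 3 each, log2 fold change -1.30 ± 0.072, adjusted p = 1.11e-36). Trex1, the nuclease gene that clears cytosolic DNA, fell in T cells with MRTX1719 (-0.56 ± 0.063) and GSK3326595 (-0.74 ± 0.063). Samhd1, which encodes a nucleotide hydrolase that also limits sensing, rose in T cells with GSK3326595 (0.72 ± 0.035, adjusted p = 4.37e-33) and was lower with MRTX1719 than with GSK3326595 (-0.71 ± 0.035, adjusted p = 4.3e-32). Ifi206, Ifi207 and Ifi213 are relatives of Ifi203. In WT cells with GSK3326595 Ifi206 was lower (-0.45 ± 0.13) and Ifi213 higher (0.45 ± 0.067). With MRTX1719 Ifi213 was higher in WT cells (0.39 ± 0.075) and lower in T cells (-0.70 ± 0.065). In KO cells Ifi206 was at -1.30 ± 0.16 with GSK3326595 and Ifi207 at 1.14 ± 0.16 with MRTX1719.

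For Z-RNA and PKR signalling, 5 of 17 genes were lower and 10 higher in KO cells with MRTX1719, and 5 and 7 with GSK3326595. WT cells had 1 lower and 1 higher with MRTX1719 and 7 and 5 with GSK3326595, and T cells 7 and 2 with MRTX1719 and 9 and 3 with GSK3326595. The 15 of 17 called in KO cells with MRTX1719 stand beside 70.5% of all genes, and the 12 of 17 with GSK3326595 beside 52.8%. Those of WT cells stand beside 7.53% with MRTX1719 and 41.1% with GSK3326595, in either direction. Those of T cells stand beside 37.4% and 52.8%. Mlkl, the gene of the pore-forming executor downstream of ZBP1 and RIPK3, stood at 46.1 ± 1.34 CPM with MRTX1719 and 56.0 ± 0.231 CPM with GSK3326595 in KO cells, against 90.2 ± 0.785 CPM with DMSO (SD, n = 3 each). Its log2 fold changes were -0.97 ± 0.036 (adjusted p = 3.72e-55) and -0.69 ± 0.034 (adjusted p = 7.95e-41), and in WT cells -0.16 ± 0.032 with MRTX1719 (adjusted p = 0.000123) and -0.69 ± 0.030 with GSK3326595 (adjusted p = 1.03e-46). Unlike Zbp1, it thus fell in WT cells with MRTX1719 too. Ppp1r15a, which encodes a subunit that reverses eIF2 phosphorylation, fell in T cells with GSK3326595 to 45.4 ± 4.24 CPM, against 104 ± 3.27 CPM with DMSO (SD, n = 3 each, -1.20 ± 0.051, adjusted p = 1.15e-37).

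Of 15 genes of interferons, their receptors and their signalling 11 were tested, and the interferon genes Ifnb1, Ifna2, Ifna4 and Ifnl2 were not, with at most 3 counts in any MC38 library and at most 7 in any library of T cells. Over the 3 libraries of a T cell group Ifna4 had 7 counts with MRTX1719, 1 with GSK3326595 and 15 with DMSO, Ifna2 had 2, 0 and 12, and Ifnb1 had 2, 0 and 7. With MRTX1719, 6 of the 7 Ifna4 counts came from 1 library, as did the 2 of Ifna2. In the same order, Ifnb1 had 2, 3 and 5 counts in KO MC38 groups and 0, 3 and 2 in WT groups. Ifna4 had 0, 0 and 0 in KO groups and 1, 0 and 3 in WT groups. These counts are too few for a test, and they are given as they stand. In KO cells 5 of the 11 were lower and 3 higher with MRTX1719, and 6 and 1 with GSK3326595, and in WT cells 0 and 3 with MRTX1719 and 7 and 0 with GSK3326595. T cells had 6 lower and 1 higher with MRTX1719 and 4 and 4 with GSK3326595. The 8 of 11 called in KO cells with MRTX1719 are near the background of 70.5%, and the 7 of 11 with GSK3326595 stand beside 52.8%. The background in either direction was 7.53% with MRTX1719 and 41.1% with GSK3326595 in WT cells. It was 37.4% and 52.8% in T cells. Irf7, a factor that drives interferon genes, had 46.6 ± 1.16 CPM with MRTX1719 and 46.8 ± 1.503 CPM with GSK3326595 in KO cells, against 83.0 ± 1.85 CPM with DMSO (SD, n = 3 each). WT cells had 119 ± 0.360 CPM with MRTX1719 (n = 2) and 52.3 ± 1.54 CPM with GSK3326595, against 117 ± 0.937 CPM with DMSO (n = 3 each). In T cells Irf7 was at 119.7 ± 3.57 CPM with MRTX1719 and 102 ± 3.23 CPM with GSK3326595, against 205 ± 4.09 CPM with DMSO, and both falls were called (-0.77 ± 0.040 and -1.01 ± 0.040, adjusted p = 1.6e-30 and 1.88e-39).

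**Figure D5:**
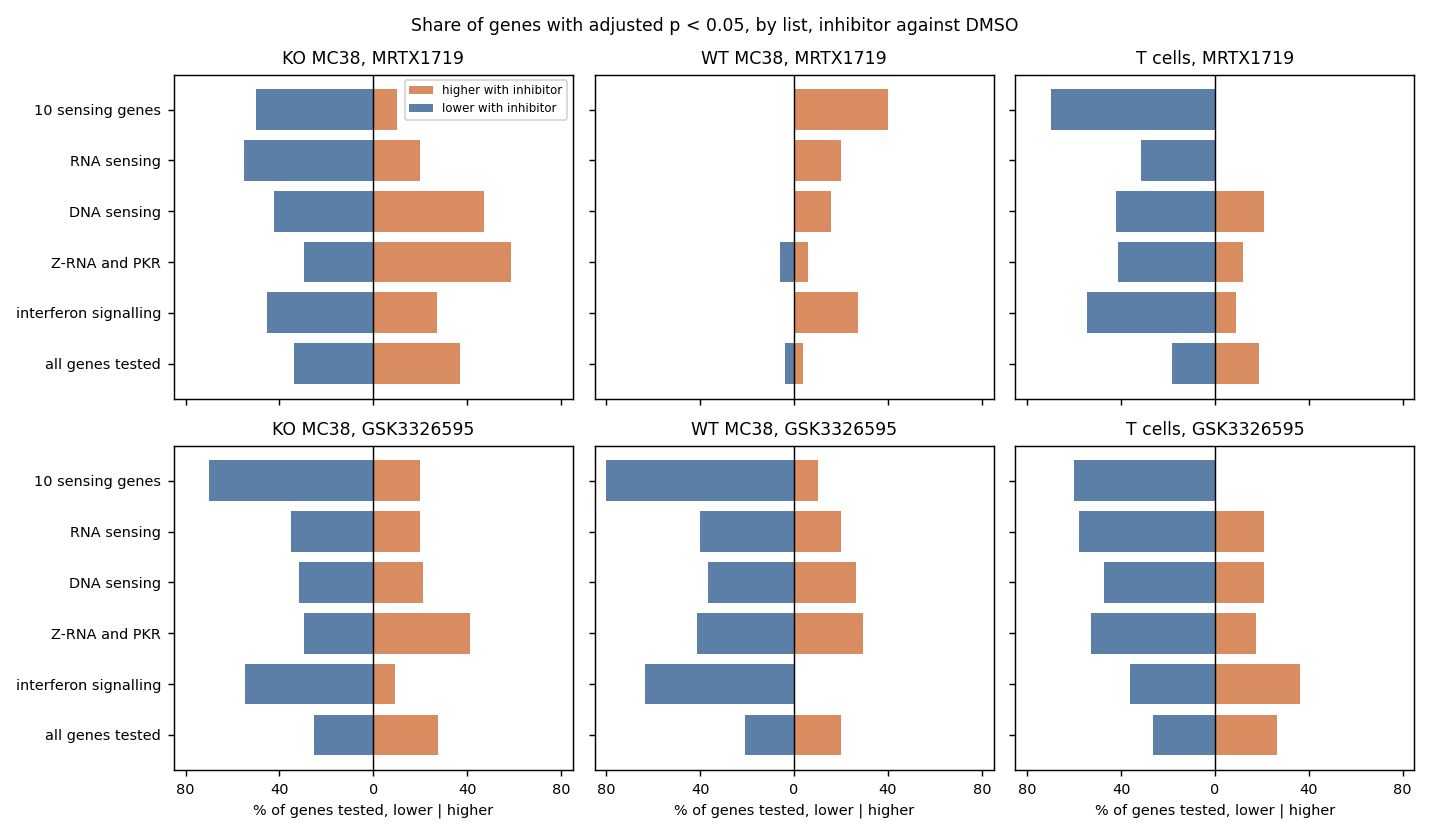
Share of tested genes in each list that were lower (left of 0, blue) or higher (right of 0, orange) with the inhibitor than with DMSO at an adjusted p under 0.05, in percent on the x axis, with MRTX1719 in the top row and GSK3326595 in the bottom row, and KO MC38 cells, WT MC38 cells and T cells from left to right. The lowest bar of each panel gives all genes tested, and in WT cells with MRTX1719 it reaches 3.91% lower and 3.62% higher, against 0 lower and 4 higher of the 10 sensing genes.

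Some markers moved with the treatments. The epithelial markers, in effect Krt8, summed to 58.5 to 60.5 CPM with MRTX1719, 59.0 to 61.9 CPM with GSK3326595 and 14.3 to 15.7 CPM with DMSO in KO cells. In WT cells they summed to 24.2 to 24.8 CPM with MRTX1719, 38.3 to 40.1 CPM with GSK3326595 and 22.1 to 24.7 CPM with DMSO. The myeloid markers, in effect Cd68 and Cd14, summed in KO cells to 35.1 to 40.1 CPM with MRTX1719, 29.6 to 32.6 CPM with GSK3326595 and 24.0 to 26.2 CPM with DMSO. In WT cells their sums were 30.6 to 31.5 CPM with MRTX1719, 31.5 to 32.1 CPM with GSK3326595 and 32.5 to 34.2 CPM with DMSO. Of the 4 myeloid markers tested, 0 were called with either inhibitor in WT cells, and 2 were called higher with each in KO cells. Over all genes 7.53% were called with MRTX1719 and 41.1% with GSK3326595 in WT cells. The shares called higher in KO cells were 37.0% and 27.7%. In T cells the CD8 T cell markers summed to 1851 to 1860 CPM with MRTX1719, 2219 to 2299 CPM with GSK3326595 and 1757 to 1786 CPM with DMSO. The NK cell list, mostly Eomes, summed to 185 to 191 CPM with MRTX1719, 194 to 203 CPM with GSK3326595 and 154 to 168 CPM with DMSO. The leukocyte list, mostly Ptprc, was at 1504 to 1558 CPM with MRTX1719, 2312 to 2447 CPM with GSK3326595 and 1523 to 1609 CPM with DMSO. The CD4 T cell list, mostly Zbtb7b, was at 34.4 to 38.8 CPM with MRTX1719, 30.1 to 33.9 CPM with GSK3326595 and 40.3 to 42.6 CPM with DMSO, and Cd4 itself had 2 to 15 counts per library. The B cell list summed to 3.85 to 4.31 CPM with MRTX1719, 4.89 to 6.84 CPM with GSK3326595 and 3.27 to 4.75 CPM with DMSO. Their part in the sensor results was not tested.

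As a description, each sensor was set beside the genes whose log2 CPM ran most like its own over the 17 MC38 libraries, which share 6 groups. Nearest to Ifih1 was Ifi35 (Pearson r = 0.990), to Ifi204 Rigi (0.985), the gene of the RNA sensor RIG-I, and to Eif2ak2 Oas3 (0.985), which makes the activator of RNase L. Nearest to Zbp1 was Irgm1 (0.9753) with Irf7 next (0.971), to Adar Irf7 (0.965), and to Dhx58 Xaf1 (0.951). Ifi203 ran closest to Gm20559 (0.965) and its neighbour Mndal (0.947), with which it shares 37 exonic bases. Sting1 ran closest to Fdft1 (0.995), a cholesterol synthesis gene, Cgas to Mlec (0.970) and Mavs to Capn11 (0.880). Among the members Sting1 and Ifih1 ran opposite to each other (-0.96), Zbp1 and Adar ran together (0.95), and Ifi203 and Cgas showed little relation (-0.04). Over the 9 T cell libraries, which share 3 groups, Dhx58 and Adar ran together (0.99), and both had the pseudogene Gvin-ps7 as their nearest gene (0.995 and 0.996). Zbp1 stood apart from Ifih1 there (0.05).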

How the data were processed

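Per the labels' protocols, poly(A) RNA was made into strand-specific libraries and sequenced. The submitters' processing notes name TopHat2 2.0.10, Bowtie2 2.1.0, DESeq 1.18.0 and the GRCm39 (mm39) build; the counting program, its strand setting and its annotation stand in none of the sources used here. Deposited for each gene are the authors' raw counts and a normalized signal that equals the counts divided by 1 size factor per library (tolerance 1e-06). Raw counts were analysed with edgeR 4.0.16 in R 4.3.3: TMM scaling, a low-count filter by group, and the quasi-likelihood test with Benjamini-Hochberg adjustment, in 1 fit of all groups for MC38 cells and another for T cells, so nothing was tested between them. DESeq2 1.42.0, limma 3.58.1 on log2 of the deposited signal plus 1, and other scalings, filters and sample sets were alternatives. The script was tested on simulated data. The 10 members and the pathway lists were chosen with earlier results of these data known. From each list and comparison at most the 2 genes with the largest change among those called were eligible to be named; their values in other comparisons are given where they add a contrast.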

Additional observations from a re-analysis of the deposited data

Results flagged for a closer look

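Effects that differed between the MC38 lines, KO minus WT on the log2 scale, passed the interaction test in edgeR for 12 of the 20 gene and inhibitor pairs tested, 6 of 10 with each inhibitor, against 58.2% of all genes with MRTX1719 and 42.2% with GSK3326595. With MRTX1719 they were -0.87 for Ifi203, -0.61 for Ifih1, -0.60 for Zbp1, -0.57 for Ifi204, -0.19 for Adar and 0.36 for Sting1. With GSK3326595 they were -0.42 for Ifi203, 0.33 for Cgas, 0.30 for Eif2ak2, 0.18 for Adar, 0.14 for Dhx58 and -0.14 for Ifih1.

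For the genes below the libraries of MC38 cells and of T cells lay on opposite sides of their DMSO libraries. That difference was not tested because MC38 cells and T cells were fitted separately. How many of all genes did the same was not counted, so it cannot be read as particular to the sensors. With GSK3326595 Sting1 changed by 0.11 in WT and 0.19 in KO MC38 cells, and by -0.05 in T cells. With MRTX1719 in WT MC38 cells and in T cells the log2 fold changes were 0.12 and -0.59 for Ifih1, 0.053 and -0.96 for Dhx58, 0.15 and -0.42 for Zbp1, 0.21 and -0.52 for Ifi203, 0.29 and -1.09 for Ifi204, and 0.074 and -0.54 for Eif2ak2. Not all of these changes passed the test on their own, as given for each gene above.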

How the results depend on the processing

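Of 120 log2 fold changes of the members, 78 were called, and 73 of these kept their call and direction under every alternative run; the 5 that did not are Sting1 with GSK3326595 in WT cells, Zbp1 and Ifih1 with MRTX1719 in WT cells, Cgas with GSK3326595 in KO cells and the GSK3326595 interaction of Dhx58. No called value changed sign, and 7 of the 42 uncalled ones passed the threshold under some alternative. With 1 library left out, the number of members called ranged over 2 to 4 for MRTX1719 in WT cells. Replicate numbers did not pair the libraries (median correlation of same-numbered deviations -0.0077 in MC38 cells and -0.0027 in T cells), and with the replicate block 9 members were called with GSK3326595 and 4 with MRTX1719 in WT cells, as without it. Over all genes MRTX1719 in WT cells gave 1117 calls, and 711 with DESeq2's Wald test.

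The sign of uncalled values turned as follows; the cause was not tested. With library totals the log2 fold change was -0.022 for Mavs with GSK3326595 and -0.029 for Eif2ak2 with MRTX1719 in KO cells, -0.0047 for the GSK3326595 interaction of Ifi204, -0.021 for the MRTX1719 interaction of Cgas, and -0.025 for Dhx58 and -0.015 for Sting1 between the inhibitors in T cells. With no low-count filter it was -0.0046, -0.021 and -0.0093 for the same Mavs, Eif2ak2 and Cgas values and 0.0023 for Sting1 with MRTX1719 in T cells; with only the groups compared it was -0.0028, -0.025 and -0.0064 for Mavs, Eif2ak2 and Cgas. With 1 library left out, the ranges with MRTX1719 were -0.0030 to 0.054 for Cgas and -0.024 to 0.037 for Sting1 in WT cells, -0.0091 to 0.025 for Eif2ak2 in KO cells, and -0.064 to 0.025 for Sting1 in T cells. With GSK3326595 they were -0.056 to 0.054 for Mavs in KO cells and -0.0077 to 0.062 for Zbp1 in T cells. For interactions they were -0.11 to 0.00034 for Mavs and -0.048 to 0.057 for Ifi204 with GSK3326595, and -0.10 to 0.0091 for Mavs and -0.0052 to 0.059 for Cgas with MRTX1719. Between the inhibitors they were -0.022 to 0.0080 for Ifih1 in KO cells, and in T cells -0.015 to 0.070 for Dhx58, -0.071 to 0.054 for Mavs, -0.11 to 0.092 for Cgas, -0.015 to 0.073 for Sting1 and -0.047 to 0.0065 for Adar. Depth limits Ifi204 in T cells and the interferon genes.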
